A study of Homo sapiens with 8 samples.

Results

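Collagens were examined as a gene family in HepG2 cells, an established human hepatocarcinoma line, after inhibition of the histone methyltransferases EZH1 and EZH2. Members were all genes of the table whose symbol has the form of COL, a type number, A and a chain number, which gave 37 of 25603 genes. Cells received UNC1999 and valemetostat tosylate at 1 µM each for 4 days (the EZHi group, 4 libraries) or the DMSO solvent at 0.2% per the labels (the vehicle group, 4 libraries), and RNA from whole cultures was sequenced as mRNA libraries. Both groups were the same unmodified line, grown in the same medium with serum, insulin and dexamethasone on dishes coated with gelatin, which is itself denatured collagen. The libraries carry replicate numbers 1 to 4. The study describes its replicates as biologically independent.

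Collagens are secreted or membrane-bound proteins built from 3 chains wound into a triple helix, and each chain has its own gene. Fibrillar collagens assemble into the rope-like fibrils of bone, skin and cartilage, type IV collagens form the sheet under epithelia and around vessels, and the other classes decorate fibrils, form beaded filaments or networks, or span the cell membrane. In liver, most fibrillar collagen of scar tissue is made by stellate cells and fibroblasts, whereas HepG2 is a line of epithelial origin. EZH1 and EZH2 are the catalytic subunits of polycomb repressive complex 2, which places the repressive mark H3K27me3 on histones at silenced genes.

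Values below are deposited log2 values corrected for transcript length, 1 unit being a 2-fold difference. Where genes are compared with each other, a level is given as an estimated FPKM (fragments normalised to transcript length and library size) computed from these values. Genes whose estimated FPKM averaged 0.1 or more over the libraries were fitted, and a gene was called when its Benjamini-Hochberg adjusted p from limma over 20153 genes was under 0.05. Of the 37 members, 23 entered this fit and 14 did not. COL5A3, COL13A1 and COL28A1 entered it only through the EZHi libraries, since their vehicle mean was below the filter. Another 7 collagen genes of GENCODE release 44 (COL1A2, COL6A5, COL6A6, COL8A1, COL11A1, COL11A2 and COL19A1) were not analysed here.

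A part of the collagen family was higher in EZHi than in vehicle, and no tested member was lower by the test. Of the 23 genes tested, 9 rose: COL2A1, COL6A1, COL6A2, COL26A1, COL8A2, COL9A2, COL17A1, COL24A1 and COL5A3. Over all genes tested, 8.85% were called higher and 4.27% lower. Higher calls were 67.5% of all calls, and 88.9% when each library was centred on the median of strongly expressed genes. COL2A1, the chain of the main cartilage fibril, rose 13.1-fold, and both type VI chains above the filter rose 4.40-fold (COL6A1) and 5.42-fold (COL6A2). No tested type IV gene was called in either direction, except COL4A1 when libraries were centred as above. At least 2-fold rises were found for 5 members, against 3.21% of all genes tested.

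The filter bears on such a count, because a gene silent in vehicle is kept only if it rises. Without a filter, all 37 members were fitted and 10 were called higher against 8.28% of all 25603 genes. This added COL9A1 (adjusted p = 0.00364, limma) and kept COL5A3 close to the threshold (adjusted p = 0.0498). The median log2 fold change was 0.37 over the 23 tested collagens and -0.0077 over all genes tested. Without a filter it was 0.17 over the 37 members and 0.011 over all genes. Of the tested collagens, 20 were above 0, against 48.0% of all genes. Calls of rises were more frequent among weakly expressed genes in general, at 13.8% of genes under a mean FPKM of 1 and 6.15% at or above it.

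**Figure D1:**
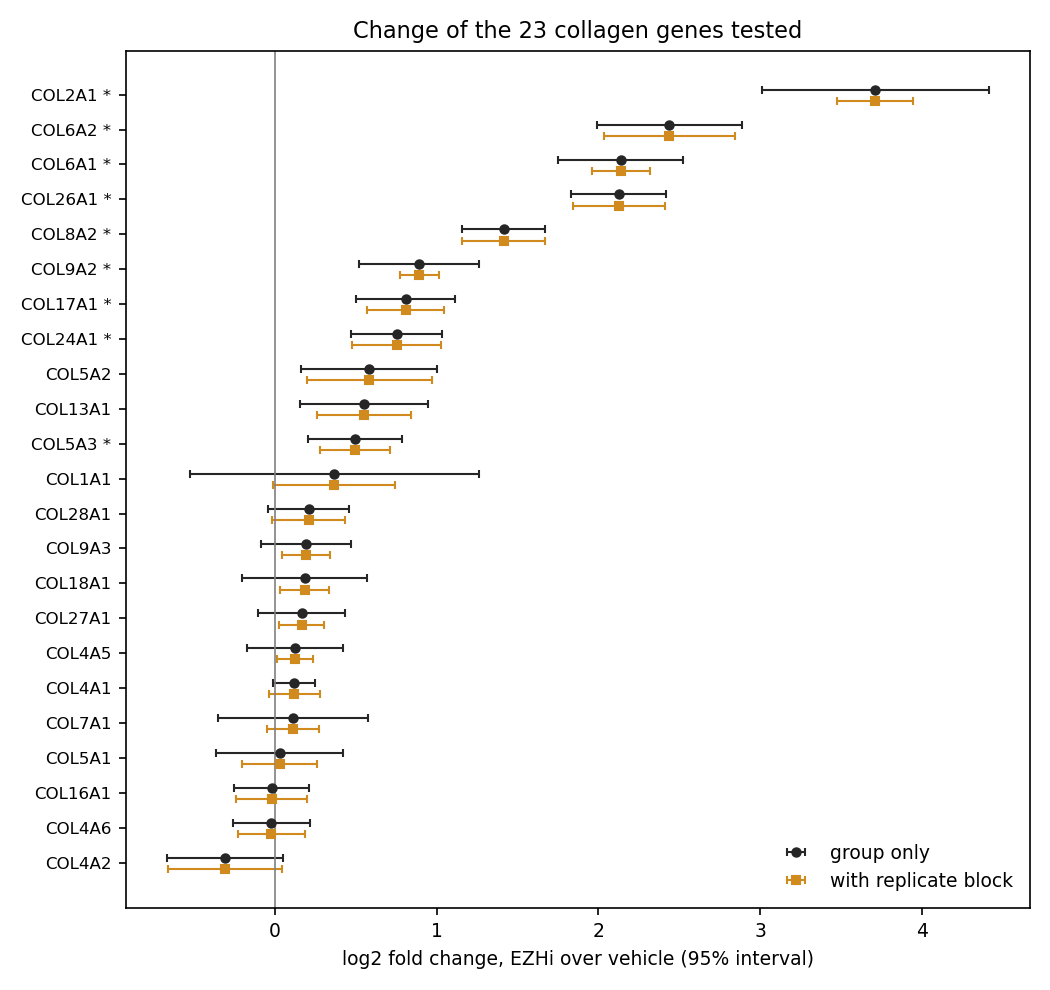
Log2 fold change, EZHi over vehicle, of the 23 collagen genes tested, with 95% intervals from limma with group only (black circles) and with the replicate number as a block (orange squares). Asterisks mark the 9 genes called in the fit with group only; COL2A1 lies at 3.71 and COL4A2, the lowest, at -0.31.

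The genes that rose at least 2-fold lie on 4 chromosomes. The regions before their start sites are shown to describe what sequence these genes have there. RefSeq start sites (GRCh38.p14) were matched for 28 members, and COL2A1 and COL6A1 are among the 9 without an entry, the others being COL1A1, COL3A1, COL5A2, COL9A3, COL14A1, COL20A1 and COL22A1. The 250 bases before the start are printed for COL6A2 (chr21:46097862-46098111, plus strand), COL8A2 (chr1:36125223-36125472, minus strand) and COL26A1 (chr7:101362625-101362874, plus strand). COL17A1 (chr10:104085881-104086130, minus strand) is added because it held the fewest CpG dinucleotides among the called members matched. Capitals mark GC boxes (GGGCGG, or CCGCCC on the other strand) and TATA boxes (TATAAA, or TTTATA on the other strand), and neighbouring boxes may overlap. Both were matched by sequence alone, wherever they lay in the window, so a match need not act as such a box.
COL6A2: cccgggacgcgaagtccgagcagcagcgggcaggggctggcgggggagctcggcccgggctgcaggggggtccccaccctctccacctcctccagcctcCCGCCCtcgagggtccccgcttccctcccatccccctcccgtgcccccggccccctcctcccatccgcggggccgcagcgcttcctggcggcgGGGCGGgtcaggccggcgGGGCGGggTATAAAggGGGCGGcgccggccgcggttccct
COL8A2: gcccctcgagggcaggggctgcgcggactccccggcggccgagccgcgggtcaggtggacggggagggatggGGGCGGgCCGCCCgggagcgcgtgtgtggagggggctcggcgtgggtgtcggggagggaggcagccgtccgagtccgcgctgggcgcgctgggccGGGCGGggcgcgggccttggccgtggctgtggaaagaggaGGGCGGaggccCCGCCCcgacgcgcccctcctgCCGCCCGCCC
COL26A1: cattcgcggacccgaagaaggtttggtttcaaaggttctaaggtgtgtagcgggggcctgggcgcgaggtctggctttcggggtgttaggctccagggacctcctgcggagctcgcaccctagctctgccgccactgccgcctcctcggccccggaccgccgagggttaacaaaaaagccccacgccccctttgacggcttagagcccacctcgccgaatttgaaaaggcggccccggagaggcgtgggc
COL17A1: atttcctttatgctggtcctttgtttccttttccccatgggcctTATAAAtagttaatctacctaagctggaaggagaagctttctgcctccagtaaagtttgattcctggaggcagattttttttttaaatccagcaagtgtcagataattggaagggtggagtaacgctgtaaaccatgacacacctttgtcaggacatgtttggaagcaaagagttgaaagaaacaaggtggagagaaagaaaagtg
The 4 windows differ in base composition. COL8A2 held 35 CpG dinucleotides and 7 GC boxes at a GC content of 82.0%, COL6A2 28 CpG and 4 GC boxes at 79.6%, and COL26A1 22 CpG and no GC box at 64.8%. COL17A1 held 1 CpG at 40.4% GC, and its TATA match lay near the end of the window far from the start. COL6A2 was the other printed window with a TATA match. In windows of 300 bases, which also hold 50 bases after the start, a GC box was found in 5 of 8 windows of the 7 matched called members (COL24A1 has more than 1 start). It was found in 10 of 14 windows of tested members that were not called and in 45.0% of all 35116 RefSeq windows. The TATA sequence was matched at any position in 7 of the 37 windows of matched members, and in 11.5% of all RefSeq windows.

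**Figure D2:**
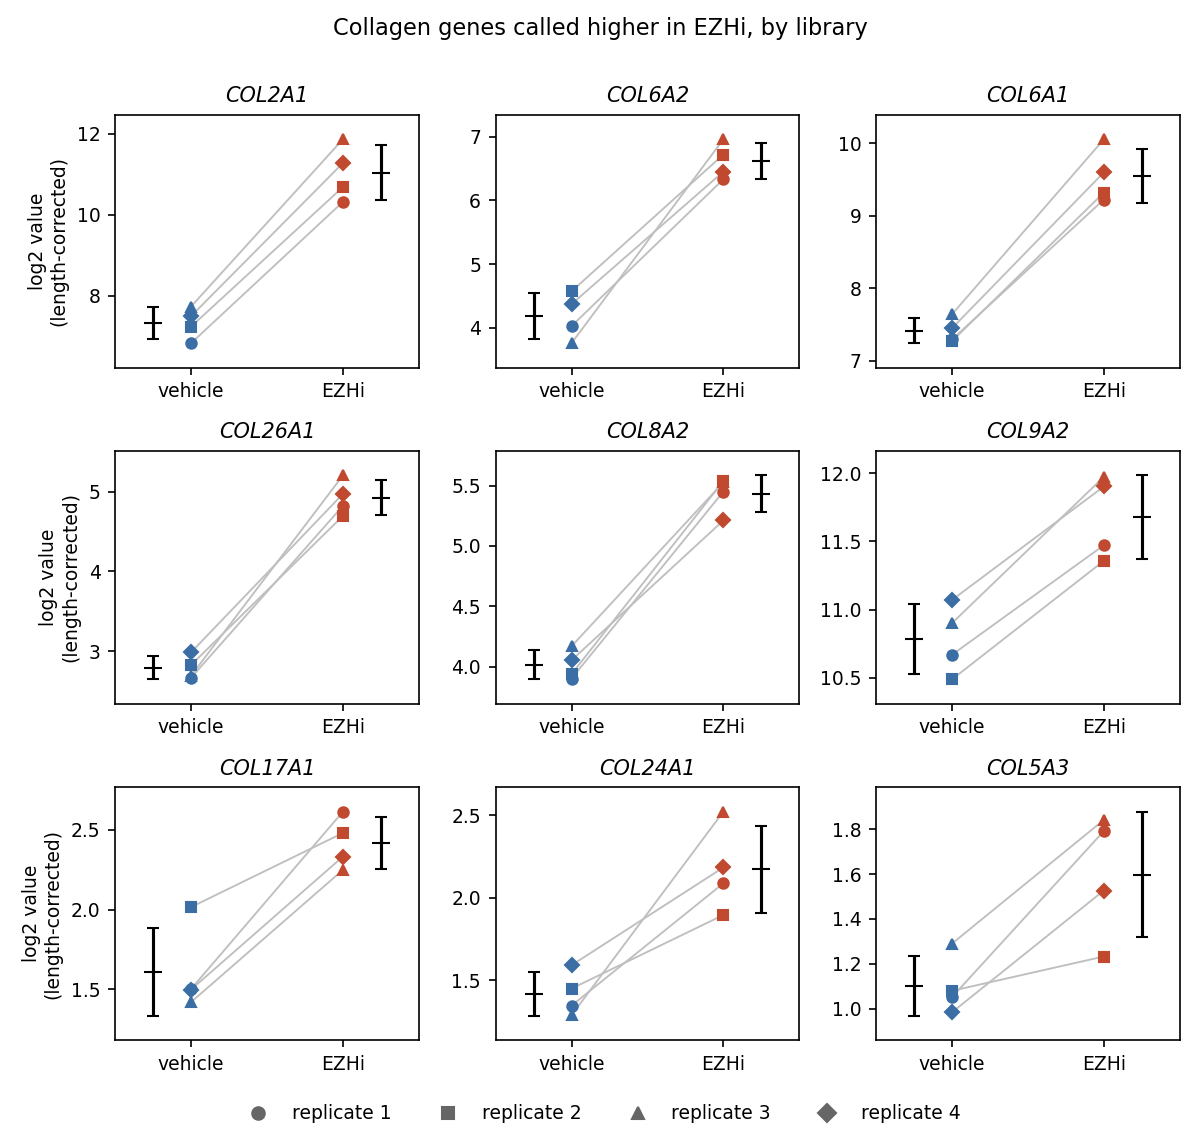
Deposited length-corrected log2 values of the 9 collagen genes called higher, by library. Symbols give the replicate number, grey lines join libraries with the same number, and black bars give the mean ± SD (n = 4); groups are separate in 8 panels and overlap for COL5A3.

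Fibrillar collagens comprised 8 members, of which 7 were tested and 3 rose. COL2A1 (ENSG00000139219, chr12:47972967-48004554, minus strand, GRCh38) encodes the chain of type II collagen, the main fibril of cartilage. Its log2 values were 6.83, 7.24, 7.73 and 7.50 in vehicle replicates 1 to 4 and 10.32, 10.68, 11.86 and 11.27 in EZHi replicates 1 to 4. All EZHi libraries lay above all vehicle libraries, and replicate 3 was the highest of both groups. COL2A1 rose by 3.71 on the log2 scale (SE 0.31, adjusted p = 5.34e-05). Within replicate pairs it ranged from 3.44 to 4.13. Its level went from 6.43 FPKM ± 1.65 to 89.0 FPKM ± 42.4 (SD, n = 4 each), which moved it from rank 10 to rank 4 among the 37 members.

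The most abundant fibrillar gene was COL27A1 (ENSG00000196739, chr9:114155537-114312511, plus strand), a chain found in the cartilage growth plate. COL27A1 read 11.91, 11.89, 12.08 and 12.07 in vehicle and 11.90, 11.97, 12.41 and 12.34 in EZHi. The groups overlapped, EZHi replicate 1 lying among the vehicle libraries. The log2 difference of 0.17 had a 95% interval of -0.10 to 0.44 (adjusted p = 0.426). With the replicate block the interval was 0.029 to 0.31 (adjusted p = 0.0694), and COL27A1 was still not called.

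COL24A1 and COL5A3 are minor fibrillar chains, and both were near the filter. COL24A1 (ENSG00000171502, chr1:85729233-86156943, minus strand) read 1.35, 1.45, 1.29 and 1.59 in vehicle and 2.09, 1.90, 2.52 and 2.18 in EZHi. The groups did not overlap and the log2 difference was 0.75 (SE 0.13, adjusted p = 0.00361), at a level of only about 8.80 normalised reads in vehicle. COL5A3 (ENSG00000080573, chr19:9959561-10010504, minus strand), a chain of type V collagen, read 1.05, 1.08, 1.29 and 0.98 in vehicle and 1.79, 1.23, 1.84 and 1.53 in EZHi. EZHi replicate 2 lay below vehicle replicate 3, so the groups overlapped. The log2 difference was 0.50 (SE 0.13, adjusted p = 0.0330), and the call was lost in 6 of 8 fits that each left out 1 library and with quantile normalisation (adjusted p = 0.174). An unnamed lncRNA overlaps its exons on the opposite strand. Since reads were counted without regard to strand, reads in the shared stretch cannot be assigned to either gene by strand.

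The remaining fibrillar genes were not called. COL1A1, the major chain of type I collagen in bone and scar, averaged 5.85 ± 0.81 in vehicle libraries and 6.21 ± 0.57 in EZHi libraries on the log2 scale (SD, n = 4 each). In vehicle this was the widest spread between libraries of any tested collagen, whereas in EZHi that of COL2A1 was wider. The 95% interval of the COL1A1 log2 difference ran from -0.52 to 1.26. COL5A1, a chain of the type V collagen that sits inside type I fibrils, differed by 0.03 on the log2 scale (95% interval -0.36 to 0.42). COL5A2, the other common type V chain, differed by 0.58 (SE 0.19, adjusted p = 0.0728), and with the replicate block its adjusted p was 0.0300. COL3A1, which accompanies type I in vessels and skin, was at 0.0512 FPKM in vehicle and 0.0523 FPKM in EZHi and was not tested.

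Type IV collagens, the scaffold of basement membranes, comprised 6 members, of which 4 were tested and none was called (0 called in either direction). Their genes lie as 3 pairs on opposite strands whose start sites are close together. COL4A5 (ENSG00000188153, chrX:108439838-108697545, plus strand) and COL4A6 (ENSG00000197565, chrX:108155607-108439497, minus strand) start 341 bp apart and were the expressed pair. COL4A5, the highest gene of the class, read 9.40, 9.57, 9.83 and 9.72 in vehicle and 9.50, 9.61, 10.04 and 9.88 in EZHi. The groups overlapped and the log2 difference was 0.13 (95% interval -0.17 to 0.42). With the replicate block the interval was 0.015 to 0.24 (adjusted p = 0.0857), and COL4A5 was still not called. COL4A6 differed by -0.02 on the log2 scale (95% interval -0.26 to 0.22). In vehicle, the level of COL4A5 was 4.26 times that of COL4A6 per mean transcript length and 2.35 times per longest transcript.

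COL4A1 and COL4A2, the chains of the most widespread basement membrane collagen, were weakly expressed. Their outermost annotated starts on chr13 lie 1345 bp apart, with the gene bounds overlapping over that stretch, and the level of COL4A1 was 0.151 times that of COL4A2 in vehicle. COL4A1 averaged 1.77 ± 0.04 in vehicle libraries and 1.89 ± 0.05 in EZHi libraries on the log2 scale (SD, n = 4 each). All its EZHi libraries lay above all vehicle libraries, but the log2 difference of 0.12 was small (adjusted p = 0.217, and 0.0343 after centring). It rested on about 5.78 normalised reads in vehicle and 6.29 in EZHi. COL4A2 differed by -0.31 (95% interval -0.66 to 0.05, adjusted p = 0.260), the lowest log2 difference of any tested collagen. COL4A3 and COL4A4, whose products serve the kidney glomerulus, start 171 bp apart on chr2 and stood at 0.0821 and 0.0301 FPKM in vehicle, below the filter.

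Basement membrane zones also hold multiplexins and anchoring fibrils. COL18A1 (ENSG00000182871, chr21:45405165-45513720, plus strand) is the multiplexin whose cleavage yields endostatin, and its exons overlap those of SLC19A1 on the opposite strand. Reads in the shared stretch cannot be assigned to either gene by strand. COL18A1 read 9.62, 9.58, 9.95 and 9.99 in vehicle and 9.63, 9.70, 10.37 and 10.17 in EZHi. The groups overlapped, and replicates 3 and 4 were the higher libraries of both. The log2 difference was 0.18 (95% interval -0.20 to 0.57). With the replicate block the interval was 0.033 to 0.34 (adjusted p = 0.0684), and COL18A1 was still not called. COL15A1, the other multiplexin, was below the filter at 0.0181 FPKM in vehicle. COL7A1 (ENSG00000114270, chr3:48564073-48595329, minus strand), the anchoring fibril of skin, read 8.67, 8.58, 9.14 and 9.03 in vehicle and 8.67, 8.59, 9.51 and 9.09 in EZHi. Its groups overlapped too, with a log2 difference of 0.11 (95% interval -0.35 to 0.57).

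**Figure D3:**
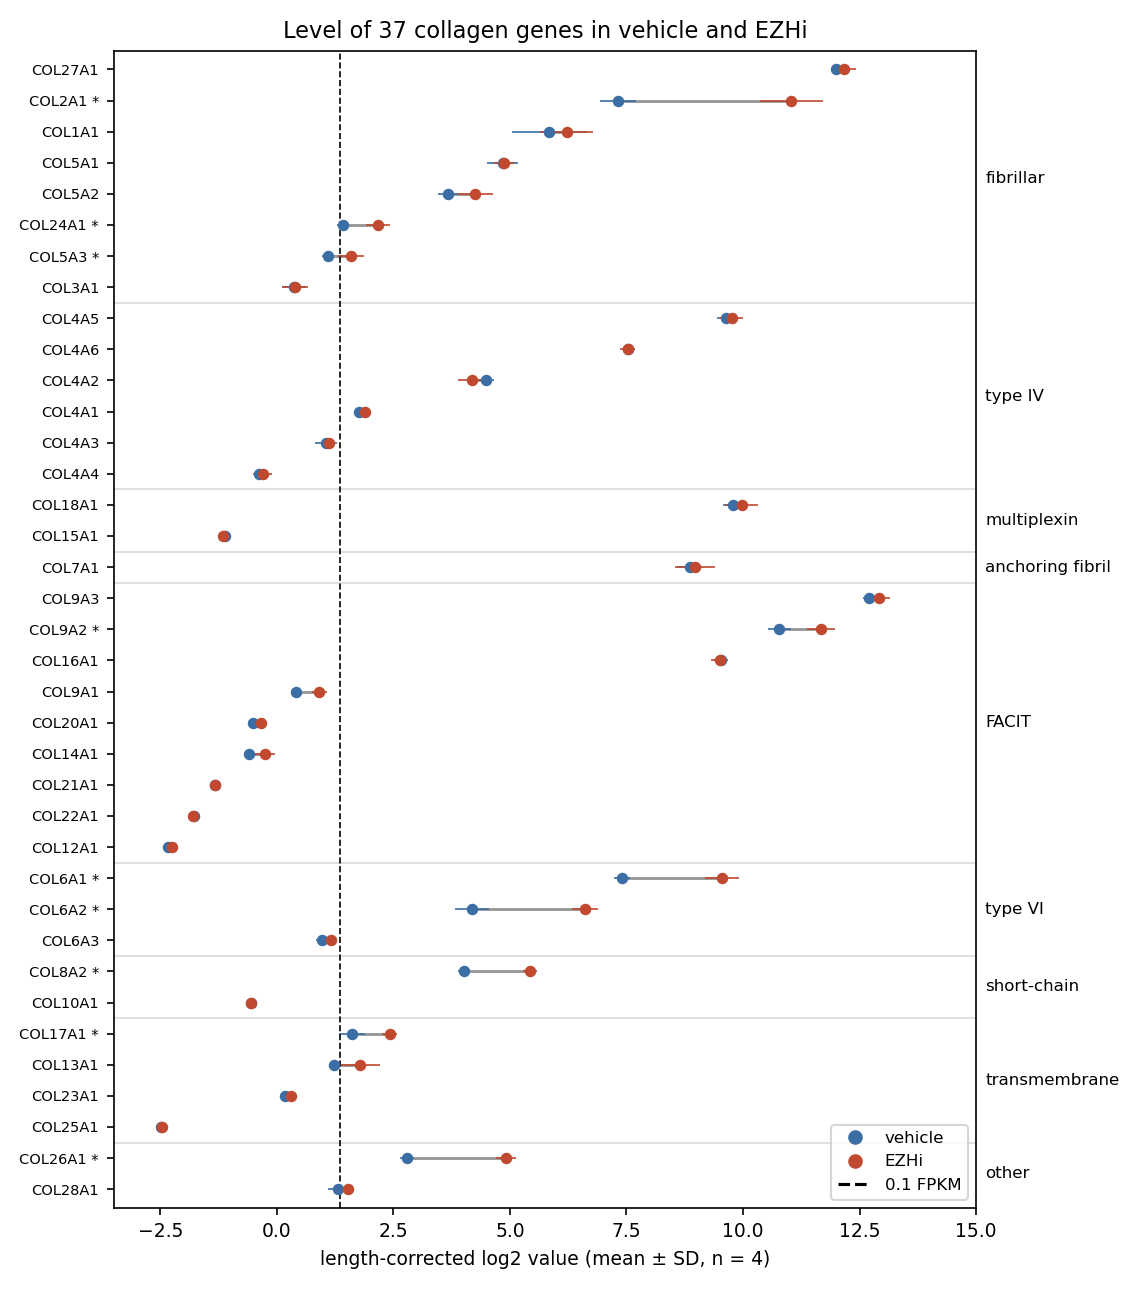
Mean ± SD (n = 4) of the deposited length-corrected log2 value of all 37 collagen genes in vehicle (blue) and EZHi (red), grouped by class. The dashed line is the log2 value of 1.36 that corresponds to 0.1 FPKM and asterisks mark called genes; COL9A3 and COL27A1 head the list, and COL2A1 shows the longest shift.

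FACIT collagens, which bind to the surface of fibrils, comprised 9 members, of which 3 were tested and 1 rose. Type IX collagen coats type II fibrils in cartilage and is a trimer of the products of COL9A1, COL9A2 and COL9A3. COL9A2 (ENSG00000049089, chr1:40300489-40317813, minus strand) read 10.67, 10.49, 10.90 and 11.07 in vehicle and 11.47, 11.36, 11.97 and 11.90 in EZHi. The groups did not overlap, and replicates 3 and 4 were the higher libraries of both. COL9A2 rose by 0.89 on the log2 scale (SE 0.17, adjusted p = 0.00605), from 69.6 FPKM ± 12.3 to 130 FPKM ± 27.3 (SD, n = 4 each).

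COL9A3 (ENSG00000092758, chr20:62816244-62841159, plus strand) was the most abundant collagen of these cells in both groups, although its exons overlap those of TCFL5 on the opposite strand. It read 12.59, 12.66, 12.69 and 12.92 in vehicle and 12.62, 12.79, 13.12 and 13.10 in EZHi. The groups overlapped and the log2 difference was 0.19 (95% interval -0.08 to 0.47, adjusted p = 0.363). With the replicate block the interval was 0.047 to 0.34 (adjusted p = 0.0507), and COL9A3 was still not called. COL9A1, the remaining chain, stood far lower, at 0.0517 FPKM in vehicle and 0.0739 FPKM in EZHi, or 3.07 and 4.40 normalised reads. All its EZHi libraries lay above all vehicle libraries, and it was called in the fit without a filter. COL16A1, a FACIT of several tissues, differed by -0.02 on the log2 scale (95% interval -0.25 to 0.21) at 28.8 FPKM in vehicle. COL12A1, COL14A1, COL20A1, COL21A1 and COL22A1 ranged from 0.00771 to 0.0276 FPKM in vehicle and were not tested. For COL14A1 all EZHi libraries lay above all vehicle libraries (adjusted p = 0.0601 without a filter).

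Type VI collagen forms beaded filaments close to the cell surface and is a trimer of the products of COL6A1, COL6A2 and another chain, most often COL6A3. COL6A1 (ENSG00000142156, chr21:45981770-46005050, plus strand) read 7.29, 7.27, 7.64 and 7.45 in vehicle and 9.22, 9.32, 10.06 and 9.60 in EZHi. The groups were separate by more than 1 log2 unit, and replicate 3 was the highest of both. COL6A1 rose by 2.14 on the log2 scale (SE 0.17, adjusted p = 3.97e-05).

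COL6A2 (ENSG00000142173, chr21:46098112-46132848, plus strand) read 4.02, 4.57, 3.75 and 4.37 in vehicle and 6.33, 6.72, 6.96 and 6.45 in EZHi. The groups were separate, although replicate 3 was the lowest vehicle library and the highest EZHi library. COL6A2 rose by 2.44 on the log2 scale (SE 0.20, adjusted p = 4.42e-05). The chains were unequal in level: in EZHi, COL6A1 reached 30.0 FPKM ± 8.24 and COL6A2 3.89 FPKM ± 0.771 (SD, n = 4 each). COL6A3 was at 0.0764 FPKM in vehicle and 0.0874 FPKM in EZHi, below the filter (adjusted p = 0.140 without a filter).

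COL6A1 and COL6A2 are neighbours on chr21, 93062 bp apart, and COL18A1 lies on the same arm before them. In the stretch from COL18A1 to 400 kb past COL6A2, 22 genes were in the table and 19 were tested. COL6A1 and COL6A2 were the 2 called, and the lowest adjusted p among the other 17 was 0.126. A count of 2 in 19 is near the share over all genes tested (8.85% called higher and 4.27% lower). FTCD, a hepatocyte enzyme of histidine and folate metabolism, lies on the minus strand. The end of the gene, not its start, is 3312 bp past COL6A2. FTCD differed by 0.06 (SE 0.21) on the log2 scale. An unnamed lncRNA between both collagen genes (ENSG00000224413) had log2 means of 0.78 in vehicle and 1.68 in EZHi. At 0.0673 FPKM in vehicle and 0.126 FPKM in EZHi its overall mean was just below the filter, so it was not tested.

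The short-chain network collagens were represented by COL8A2 and COL10A1. COL8A2 (ENSG00000171812, chr1:36095239-36125222, minus strand), a component of the membrane under the corneal endothelium, read 3.90, 3.94, 4.17 and 4.05 in vehicle and 5.45, 5.54, 5.53 and 5.21 in EZHi. The groups were separate and the spread within each was narrow. COL8A2 rose by 1.42 on the log2 scale (SE 0.11, adjusted p = 4.05e-05). COL10A1, the collagen of hypertrophic cartilage, stayed at 0.0266 FPKM in vehicle and 0.0268 FPKM in EZHi and was not tested.

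Of 4 transmembrane collagens, COL17A1 and COL13A1 were tested and COL17A1 rose. COL17A1 (ENSG00000065618, chr10:104031286-104085880, minus strand), part of the hemidesmosome that ties epithelial cells to the basement membrane, read 1.50, 2.02, 1.42 and 1.50 in vehicle and 2.61, 2.48, 2.25 and 2.33 in EZHi. Vehicle replicate 2 lay above the other vehicle libraries but below all EZHi libraries. COL17A1 rose by 0.81 on the log2 scale (SE 0.14, adjusted p = 0.00367), at about 6.09 normalised reads in vehicle and 10.6 in EZHi. The microRNA gene MIR936 lies within its exons on the same strand.

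COL13A1, found at neuromuscular junctions, differed by 0.55 on the log2 scale (SE 0.18, adjusted p = 0.0705), and its adjusted p with the replicate block was 0.0110. Its EZHi values were 1.35 and 1.50 in replicates 1 and 2 and 2.17 and 2.12 in replicates 3 and 4, against a vehicle mean of 1.24 ± 0.09 (SD, n = 4). Replicate 1 of EZHi lay below vehicle replicate 4, so the groups overlapped. COL23A1 and COL25A1 were at 0.0443 and 0.00700 FPKM in vehicle and were not tested.

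Outside these classes, COL26A1 rose and COL28A1 was not called. COL26A1 (ENSG00000160963, chr7:101362875-101559024, plus strand), a secreted protein with short collagen stretches, read 2.67, 2.83, 2.70 and 2.99 in vehicle and 4.82, 4.69, 5.20 and 4.97 in EZHi. The groups were separate in every pair by at least 1.86 log2 units. The log2 difference was 2.13 (SE 0.13, adjusted p = 8.64e-06), the lowest p of any collagen. COL28A1 differed by 0.21 (95% interval -0.04 to 0.46). Across the family, all EZHi libraries lay above all vehicle libraries for 9 of the 23 tested members (the called genes without COL5A3, and COL4A1), against 10.7% of all genes tested. The deposited values draw weakly counted genes towards their mean, so that the log2 differences of COL5A3, COL17A1 and COL24A1 are likely to understate the change in reads.

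In level, the collagen transcripts of vehicle cells were led by few genes. The order was COL9A3 (263 FPKM ± 27.2), COL27A1 (159 FPKM ± 11.3), COL9A2 (69.6 FPKM ± 12.3), COL18A1 (34.7 FPKM ± 5.10) and COL4A5 (31.2 FPKM ± 3.95, SD, n = 4 each). The first 3 were separate beyond their spread, whereas COL18A1, COL4A5 and COL16A1 (28.8 FPKM ± 2.64) lay within it. The first 5 genes together made up 88.1% ± 0.627 of the summed collagen FPKM in vehicle and 78.8% ± 2.58 in EZHi (SD, n = 4 each). Using the longest transcript of each gene in place of the mean length left the first 8 ranks in vehicle as they were. COL2A1 and COL6A1 were ranks 10 and 9 by mean length and exchanged places by longest transcript.

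The summed collagen level went from 633 FPKM ± 58.3 to 877 FPKM ± 182 (SD, n = 4 each). It was 581, 592, 652 and 707 FPKM in vehicle and 698, 750, 1080 and 979 FPKM in EZHi. EZHi replicate 1 lay below vehicle replicate 4, and every EZHi library was above the vehicle library of its number. COL2A1 made up 1.01% ± 0.210 of the sum in vehicle and 9.76% ± 2.71 in EZHi, and without it the sum was 627 FPKM ± 57.1 and 788 FPKM ± 142. The type VI share went from 1.19% ± 0.0810 to 3.86% ± 0.352, while the type IV share went from 6.26% ± 0.373 to 4.87% ± 0.274. These are shares of a sum that itself changed, and the level of no tested type IV gene was called.

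**Figure D4:**
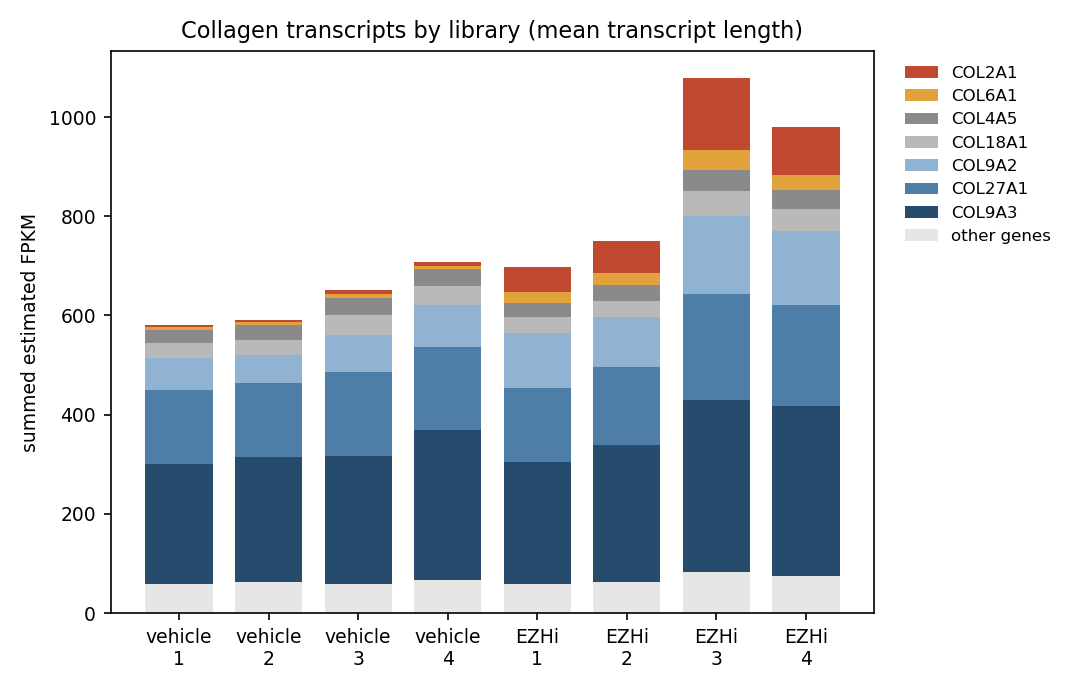
Summed estimated FPKM of the 37 collagen genes in each library, stacked by gene from a baseline of 0, with the genes not named in the key together in light grey. Bars range from 581 to 707 FPKM over the vehicle libraries and from 698 to 1080 FPKM over the EZHi libraries, and the COL2A1 section is 1.01% of the sum on average in vehicle and 9.76% in EZHi.

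Genes that act on collagen were taken from lists of modifying enzymes, folding and export factors, propeptide proteases, cross-linking oxidases, receptors and degrading enzymes. Of 57 genes, 52 were in the table and 47 tested, and 5 rose and 4 fell. Over all genes tested in the same fit, 8.85% rose and 4.27% fell, so that the count of rises is near the background. With the replicate block, 9 rose and 9 fell, against 14.9% and 15.1% of all genes tested. The median log2 fold change was 0.0079 over the 47 genes.

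MMP2, the gelatinase that degrades denatured collagen and type IV collagen, read 3.42, 3.55, 3.45 and 3.77 in vehicle and 5.92, 6.61, 5.94 and 6.33 in EZHi. The groups were separate and the log2 difference was 2.65 (SE 0.17, adjusted p = 1.05e-05). LOXL1, a lysyl oxidase that cross-links elastin and collagen, rose by 1.43 (SE 0.16, adjusted p = 0.000299). ADAMTS14, a protease that removes the N-terminal propeptide of procollagen, rose by 1.41 (SE 0.23, adjusted p = 0.00306) from a level of 0.0928 FPKM, and entered the fit only through the EZHi libraries. PCOLCE2, an enhancer of C-propeptide cleavage, rose by 0.80 (SE 0.21, adjusted p = 0.0327). MRC2, an endocytic receptor for collagen fragments, rose by 0.71 (SE 0.15, adjusted p = 0.0138). The call of PCOLCE2 was lost in 5 of 8 fits that left out 1 library, and that of MRC2 with quantile normalisation (adjusted p = 0.0589).

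The genes that fell were 1 receptor chain and 3 export or folding genes. ITGA2, the alpha chain of an integrin that binds collagen, read 9.77, 10.01, 9.94 and 9.82 in vehicle and 9.27, 9.32, 9.39 and 9.27 in EZHi. The groups were separate and ITGA2 fell by 0.57 on the log2 scale (SE 0.070, adjusted p = 0.000533). KLHL12 and SEC24D, which serve the large transport vesicles that carry procollagen, fell by 0.31 (SE 0.075, adjusted p = 0.0213) and 0.28 (SE 0.069, adjusted p = 0.0242). FKBP14, a prolyl isomerase of the endoplasmic reticulum, fell by 0.25 (SE 0.066, adjusted p = 0.0366). The calls of KLHL12, SEC24D and FKBP14 were lost with quantile normalisation and after centring, and in 4, 5 and 7 of 8 fits that left out 1 library.

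Of the 14 hydroxylation and glycosylation genes none was called (0 of 14), although PLOD1, P4HA1 and PLOD2 fell with the replicate block (adjusted p = 0.00206, 0.00505 and 0.00827). The highest gene of each list by its mean over all libraries, among those not called, was P4HB (534 FPKM in vehicle), SEC23A (683 FPKM), PCOLCE (26.9 FPKM, with ADAMTS2 at 27.7 FPKM in vehicle), LOX (60.7 FPKM), ITGB1 (205 FPKM) and PEPD (65.7 FPKM). LOX, the main collagen cross-linking oxidase, differed by 0.50 (SE 0.32, adjusted p = 0.369), and its adjusted p with the replicate block was 0.000235. SEC23A, a coat protein of transport vesicles, differed by -0.22 (adjusted p = 0.140), and its adjusted p with the block was 0.0120. LOXL3, MMP14 and CTSK were called higher with the block but not with group only (log2 differences 0.86, 0.44 and 0.36). Their limma adjusted p with the block was 7.45e-05, 0.0317 and 0.0281. LOXL2 was called lower with the block but not with group only (log2 difference -0.71, limma adjusted p = 0.0208). Specific collagen chaperones were among the genes not called: SERPINH1 (HSP47) stood at 104 FPKM in vehicle and 107 FPKM in EZHi.

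**Figure D5:**
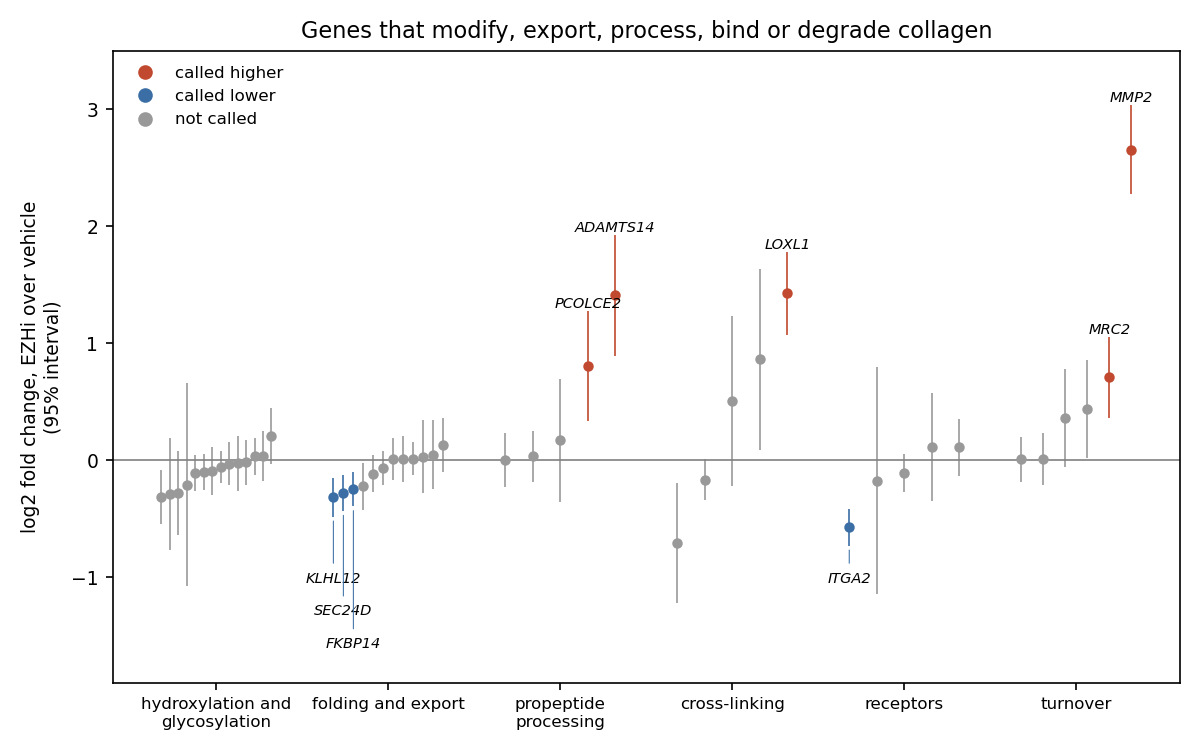
Log2 fold change, EZHi over vehicle, with 95% intervals from limma, of the 47 tested genes that modify, export, process, cross-link, bind or degrade collagen, by list. Red genes were called higher (5), blue genes lower (4) and grey genes not called; MMP2 is the highest at 2.65 and no hydroxylation gene was called.

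The samples carried the transcripts of a hepatocyte line, with AFP at 16089 FPKM and ALB at 11211 FPKM in vehicle. Since these are bulk cultures, fewer cells of a type and less RNA per cell cannot be told apart. Of the stellate cell and fibroblast markers, DCN, LUM, THY1 and POSTN were not analysed here. Of 5 tested, PDGFRA rose (log2 difference 0.92, adjusted p = 0.00503), to 0.307 FPKM, and the summed level of the list was 40.7 to 61.6 FPKM over the vehicle libraries and 46.8 to 58.1 FPKM over the EZHi libraries. With the replicate block, TAGLN, a smooth muscle cytoskeletal gene of the same list, was called lower (log2 difference -0.70, adjusted p = 7.73e-05). Of 5 endothelial markers tested, CDH5 and VWF rose (log2 differences 2.28 and 1.45), and the list sum was 2.62 to 3.18 FPKM in vehicle and 4.09 to 7.56 FPKM in EZHi. LYVE1 was called higher with the block (log2 difference 0.36, adjusted p = 0.0207). Of 3 immune markers tested 0 were called, and LYZ made up nearly all of that list's sum of 1213 to 1687 FPKM in vehicle and 1088 to 1558 FPKM in EZHi. CD3E, below the filter, was called higher by limma without a filter (log2 difference 0.37, adjusted p = 0.00368). Another 3 immune and 2 endothelial list genes were not analysed here. Of 8 hepatocyte markers, FGB rose (log2 difference 0.92), and the list sum was 23845 to 46726 FPKM in vehicle and 26281 to 42834 FPKM in EZHi. With the block, APOA1 and APOB were called higher (log2 differences 0.43 and 0.36, adjusted p = 0.00812 and 0.00155) and ALB lower (log2 difference -0.28, adjusted p = 0.0314). The part of other cell types in the collagen results was not tested.

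Since type II and type IX collagens are known from cartilage, cartilage genes were read beside them. Of 6 tested, SOX6 (log2 difference 1.67, adjusted p = 0.00275), SOX8 (2.16, adjusted p = 5.39e-06) and COMP (2.66, adjusted p = 0.000429) rose. Over all genes tested, 8.85% were called higher, and 14.9% with the replicate block. SOX5 and SOX6 encode partners of SOX9 in the activation of COL2A1 in chondrocytes, and COMP encodes a cartilage matrix protein. SOX9, the factor that drives chondrocyte identity, stood at 78.6 FPKM in vehicle and differed by 0.19 (adjusted p = 0.323), and SOX5 differed by 0.29 (adjusted p = 0.0982). With the replicate block, SOX9 and SOX5 were called higher (adjusted p = 0.0156 and 0.00475) and MATN3, a matrilin of cartilage, was called lower (log2 difference -0.67, adjusted p = 4.37e-05). ACAN, which encodes the main proteoglycan of cartilage, was at 0.0132 FPKM in vehicle and 0.0163 FPKM in EZHi, below the filter. MATN1, also below it, was called higher by limma without a filter (log2 difference 0.30, adjusted p = 0.0380). Another 2 genes of the list were not analysed here. The summed level of the cartilage list was 208 to 407 FPKM over the vehicle libraries and 207 to 325 FPKM over the EZHi libraries. Most of that sum came from MATN3 (217 FPKM in vehicle and 134 FPKM in EZHi) and SOX9 (78.6 and 90.2 FPKM).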

How the data were processed

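RNA of 8 HepG2 samples was sequenced by the authors as paired reads. The submitters' processing notes name HISAT2 2.2.1, HTSeq 0.9.1 and DESeq2 1.40.2; per the study's methods, reads were counted over exons without regard to strand. Although the deposited table is named for FPKM, its values are length-corrected regularised log2 values, normalised by the authors over all libraries; once the length is undone, they sum to 24355567 to 27314450 normalised reads per library. No raw counts were used, so no counting interval was computed. Gene lengths and coordinates came from GENCODE release 44 (GRCh38; 25594 of 25603 genes matched), and the estimated FPKM is 2 to the power of the deposited value, divided by 25.6, from mean transcript length. 1 duplicate row was dropped, and the number of value columns left out was 0.

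Groups came from the sample titles. EZHi and vehicle were compared with limma 3.58.1 (R 4.3.3; trended prior, group only, two-sided, Benjamini-Hochberg over 20153 genes averaging 0.1 estimated FPKM or more). limma was used because the values are on a log2 scale; the script was tested on simulated data. For the block, libraries were paired by replicate number, which the labels do not describe further. Deviations from the group means correlated at 0.31, 0.56, 0.63 and 0.22 between libraries of the same number. Between libraries of different numbers they correlated at -0.58 to 0.20. The fit with the replicate number as a block is given beside results it changes. Of the other alternatives, 8 left out each library in turn, and the rest changed the filter (none, 1 FPKM), the pseudocount (0.1, 0.5), the scaling (quantile, centring on genes of at least 10 FPKM) and the prior. Levels per longest transcript were an alternative chosen after seeing the data. Library values are given for every called member and the highest member of each class; genes of the collagen-related lists are named when called, and otherwise by the highest of each list. Other members and genes were named after their values were seen. The members and lists were chosen with earlier results of these data known. RefSeq promoter windows belong to GRCh38.p14.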

Additional observations from a re-analysis of the deposited data

Results flagged for a closer look

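In 14 of 154 groups of 4 libraries (every member and the other genes named, in each condition), 1 library lay above the other 3 by Dixon's criterion. For normally distributed values chance alone gives about 1 in 20, or 7.7 of 154. Some members below the filter had nearly constant values, so this rate may not hold for them. Of the tested collagens, COL17A1 read 2.02 on the log2 scale in vehicle replicate 2 against 1.42 to 1.50 in the other vehicle libraries. COL13A1 read 1.37 in vehicle replicate 4 against 1.18 to 1.20. COL17A1 stayed called without its library, and COL13A1 stayed uncalled.

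Another 9 groups belonged to collagens below the filter. In vehicle these were COL3A1 (0.76 in replicate 2), COL12A1 (-2.29 in replicate 2), COL14A1 (-0.54 in replicate 1), COL15A1 (-0.996 in replicate 1), COL21A1 (-1.21 in replicate 3) and COL23A1 (0.31 in replicate 3). In EZHi they were COL4A4 (-0.0013 in replicate 4), COL15A1 (-1.15 in replicate 3) and COL22A1 (-1.79 in replicate 3). For COL15A1 in EZHi the other libraries read -1.1560 to -1.1558 against -1.1536. For COL22A1 in EZHi they read -1.7867 to -1.7866 against -1.7852. The other 3 groups were COMP in EZHi (9.89 in replicate 2), PLOD2 in vehicle (11.97 in replicate 3) and the lncRNA ENSG00000224413 in vehicle (0.85 in replicate 4). The cause of these values was not tested.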

How the results depend on the processing

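Of the 9 called collagens, 8 kept their call under every alternative in which they were tested. COL5A3 lost it with quantile normalisation (adjusted p = 0.174), with a pseudocount of 0.5 (0.0590) and in 6 of 8 omissions of 1 library (up to 0.0932). The count of collagens called higher was 8 to 10 over the omissions and 0 were called lower. At a filter of 1 FPKM it was 5 of 14 tested, since COL5A3, COL17A1, COL24A1 and COL26A1 were no longer tested. Over all genes at that filter, 780 of 13007 were called higher. With the replicate block, which pairs libraries by replicate number, it was 11 of 23, against 14.9% of all genes tested. COL5A2 (adjusted p = 0.0373), COL13A1 (0.0367) and COL4A1 (0.0343) were called higher after centring, and COL4A1 reversed to -0.014 with quantile normalisation.

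Of the collagen-related genes, 3 were called higher at a filter of 1 FPKM and 9 with the replicate block (4 to 5 over the omissions). Lower calls numbered 2 with quantile normalisation, 1 after centring and 9 with the block. They ranged from 1 to 4 over the omissions, being 1 without vehicle replicate 1 or EZHi replicate 4, and 2 without vehicle replicate 4 or EZHi replicate 3. Over all genes, 1784 were called higher and 860 lower. The higher count was 780 at a filter of 1 FPKM, 3003 with the block and 1422 to 1711 over the omissions. The lower count was 319 after centring, 3048 with the block and 389 to 860 over the omissions (495 without vehicle replicate 1, 454 without vehicle replicate 4, 554 without EZHi replicate 1 and 389 without EZHi replicate 4). Higher calls were 67.5% of all calls, 88.9% after centring and 49.6% with the block.

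Signs turned only for genes that were not called. COL5A1 went to -0.19 with quantile normalisation, COL16A1 to 0.061 with it and 0.076 after centring, and COL4A6 to 0.076 after centring. Over the omissions COL5A1 ranged from -0.10 to 0.12, COL4A6 from -0.087 to 0.033, COL7A1 from -0.070 to 0.24, COL16A1 from -0.086 to 0.033, P4HB from -0.033 to 0.079, PCOLCE from -0.0034 to 0.30 and PEPD from -0.056 to 0.081. PCOLCE2 lost its call in 5 omissions, KLHL12 in 4, SEC24D in 5 and FKBP14 in 7. The cause of these changes was not tested. Depth limits the members below 0.1 FPKM, which had at most 6.25 normalised reads in vehicle. Of these, COL9A1 was called without a filter. Depth limits some tested members too: COL13A1, COL28A1, COL4A1 and COL17A1 had 4.17, 4.39, 5.78 and 6.09 normalised reads in vehicle.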
